A study of Mus musculus with 6 samples.

Results

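Cycling T cells were the tumor-infiltrating T cells with RNA of both Mki67 and Top2a, read in mouse CT2A glioma by single-cell RNA sequencing. A cell barcode was kept when it held at least 5000 gene UMIs (unique molecular identifiers, each standing for 1 captured RNA molecule), at most 10% of them mitochondrial, and was listed in a table of T cell receptor (TCR) contigs. The cells were chosen by these 2 genes: of 7847 kept, 931 had at least 1 UMI of Mki67 and at least 1 of Top2a, 387 of 4632 at day 13 and 544 of 3215 at day 19. By coreceptor RNA, 642 of the 931 were CD8 cells (Cd8a or Cd8b1 present and Cd4 absent, 301 at day 13 and 341 at day 19) and 160 were CD4 cells (45 and 115). Another 84 held RNA of both coreceptors and 45 of neither, and these entered no comparison. The non-cycling reference was the cells without a UMI of either marker, 3401 CD8 and 1074 CD4 cells. Cells with only 1 of the 2 markers stood between and were left out.

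The tumors grew in the brain of wild-type C57BL/6J mice aged 6 to 8 weeks, from CT2A, a mouse glioma line. No drug or other treatment is named, so both groups share the strain, the line and the sort and differ by time. CD3+ cells were sorted at day 13 (16 mice, in pools of 4) and at day 19 (4 mice). Each day went through 1 capture with 5' chemistry, giving gene expression, antibody tag and TCR libraries. The TCR contigs came in 4 tables a day, called sets here. The labels do not tie a set to a mouse or pool, so ranges over sets describe the spread and are not replicate errors. Of the cells with at least 10 counts of the multiplexing tags, 99.5% to 100% of a day 13 set and 80.2% to 100% of a day 19 set carried mostly the tag most common in that set. With 1 capture a day no test between groups was made, day and capture cannot be told apart, and all intervals are 95% and cover counting error only. The 2 gene expression matrices hold 144565182 UMIs at day 13 and 81224453 at day 19, with 8359 and 4295 barcodes in the contig tables. Of those, 58 barcode sequences occurred on both days, and 28 were past the limits on both, with no cycling cell among them. Of the clonotypes with at least 2 cells in a set, 5.88% to 11.8% recurred in another set at day 13 and 29.5% to 40.0% at day 19, so the day 19 sets share clones or cells.

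Mki67 encodes Ki-67, which coats chromosomes in mitosis and is present in dividing cells. Top2a encodes topoisomerase II alpha, which untangles DNA in late S phase and mitosis. T cells divide after the TCR meets antigen, and their daughters carry the same rearranged TCR, so division leaves clones. In tumors, T cells that keep Tcf7, encoding the factor TCF-1, are known as a self-renewing pool, while Pdcd1 (the checkpoint receptor PD-1) marks chronic stimulation and Havcr2 (TIM-3) a later, dysfunctional state.

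A clonotype here is a pair of CDR3 nucleotide sequences, the junctions of the TCR alpha (TRA) and beta (TRB) chains, within a set. The clonotypes with the most cycling cells on each day are shown, since they hold the largest clonal groups of dividing cells. At day 13 this was a set 4 clonotype of TRAV7D-2/TRAJ7 and TRBV16/TRBJ2-7, with 18 cycling among 32 cells (56.2%, 37.7% to 73.6%). At day 19 it was a set 3 clonotype of the same V and J segments, with 15 cycling among 47 (31.9%, 19.1% to 47.1%). Capitals mark the bases at which the sequences of the days differ.
day 13 TRA: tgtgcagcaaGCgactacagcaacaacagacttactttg
day 19 TRA: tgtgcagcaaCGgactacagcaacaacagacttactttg
day 13 TRB: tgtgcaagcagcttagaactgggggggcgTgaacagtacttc
day 19 TRB: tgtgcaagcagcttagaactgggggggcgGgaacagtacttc
The TRA pair is 39 bases long and differs by G11C and C12G, and the TRB pair is 42 bases long and differs by T30G, with the day 13 base first and positions counted from 1 at the 5′ end of the CDR3. Cells of these 4 segments were all CD8, 36 at day 13 with 19 cycling and 76 at day 19 with 17 cycling.
The next clonotypes by cycling cells used other segments, and their junctions are shown for comparison. At day 13 a set 2 clonotype of TRAV5-1/TRAJ12 and TRBV1/TRBJ1-1 had 11 cycling among 31 cells. At day 19 a set 2 clonotype of TRAV6D-5/TRAJ27 and TRBV26/TRBJ1-6 had 12 cycling among 71 cells (16.9%, 9.05% to 27.7%).
day 13 set 2 TRA: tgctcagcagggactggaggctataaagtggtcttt
day 13 set 2 TRB: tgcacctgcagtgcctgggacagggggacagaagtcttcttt
day 19 set 2 TRA: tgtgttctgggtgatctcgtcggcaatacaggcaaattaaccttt
day 19 set 2 TRB: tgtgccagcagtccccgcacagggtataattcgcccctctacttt
The third at day 13 was a set 2 clonotype of TRAV7-1/TRAJ23 and TRBV12-1/TRBJ2-2 with 5 cycling among 29 cells. A set 3 clonotype of TRAV9D-3/TRAJ7 and TRBV2/TRBJ2-5 tied with it, at 5 among 9. The third at day 19, of TRAV8-1/TRAJ26 and TRBV10/TRBJ2-1 in set 4, had 7 cycling among 22. Since these clones were chosen by their number of cycling cells, their shares are a description.

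The label was checked with the other markers of division, which did not enter the choice of cells. Ccna2 encodes cyclin A2, which drives S phase and entry into mitosis, and Birc5 encodes survivin of the chromosomal passenger complex. Among CD8 cells at full depth, Ccna2 was detected in 80.1% of cycling cells on each day and in 0.798% and 1.40% of non-cycling cells. Birc5 was detected in 83.1% and 85% of cycling against 2.35% and 3.58% of non-cycling CD8 cells. In cycling CD4 cells Ccna2 was found in 55.6% and 72.2% and Birc5 in 60% and 73.9%, against at most 7.32% of non-cycling CD4 cells. At least 1 UMI of Cd3d, Cd3e or Cd3g was present in all cycling CD8 and CD4 cells. The threshold took in weakly marked cells. Cycling CD8 cells with exactly 1 UMI of each marker numbered 29 and 28, and 24.1% and 35.7% of them had Ccna2 or Birc5, against 91.5% and 92.3% of those with more. Just outside, the 321 and 230 CD8 cells with 1 UMI of only 1 marker had either gene in 8.72% and 13.9%. In CD4 cells 15 of the 45 at day 13 and 18 of the 115 at day 19 were at the threshold, so the day 13 CD4 group holds the larger share of weakly marked cells.

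The rule, which asks for a UMI of each of 2 genes, favours deep barcodes, so the depth of cycling cells is partly fixed by it. The median cycling CD8 cell had 17818 UMIs at day 13 and 18589 at day 19, against 6984 and 8144.5 in non-cycling CD8 cells. For CD4 cells the medians were 13612 and 19653 against 7822.5 and 8877.5. A rare RNA is found more readily in a deep cell, so from here the share of cells with a gene is given after each cell was thinned to 5000 randomly drawn UMIs. Also given, as "matched", are non-cycling cells drawn to the UMI deciles of the cycling cells (187 and 190 CD8 cells, 41 and 95 CD4 cells). Their median UMIs were 14754 and 14763.5 in CD8 and 13540 and 16279 in CD4. Droplets also carried macrophage RNA. More than 20 UMIs of the 9-gene macrophage and monocyte list (Lyz2, C1qa, C1qb, C1qc, Csf1r, Cd68, Adgre1, Fcgr1, Apoe) were found in 11.0% and 18.5% of cycling against 8.02% and 15.3% of non-cycling CD8 cells. In CD4 cells it was 40% and 53.0% against 32.6% and 43.3%, and in the matched cells 29.9% and 36.8% (CD8) and 48.8% and 63.2% (CD4). All 9 genes were detected in every group. As counts for every 1000000 UMIs (CPM), the list summed to 1032 and 2196 in cycling and 1841 and 2131 in non-cycling CD8 cells, and to 4610 and 6068 against 7165 and 8699 in CD4 cells. Some results without such cells are given below, and the part of this RNA in the other results was not tested. A second TRB chain, a sign of 2 cells in a droplet, was seen in 7.64% and 9.38% of cycling against 7.27% and 7.69% of non-cycling CD8 cells and in 13.3% and 10.4% against 9.56% and 5.65% of CD4 cells. The cycling cells with RNA of both coreceptors had a second TRB chain in 51.9% and 28.1%. No doublet caller was run.

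A larger share of T cells was cycling at day 19 than at day 13 in both classes. Of CD8 cells 10.2% (9.11% to 11.3%) were cycling at day 13, with 13.4%, 10.4%, 8.19% and 11.4% in sets 1 to 4. The day 19 share was 18.9% (17.2% to 20.8%), with 28.1%, 16.8%, 16.9% and 21.1%. Of CD4 cells 5.65% (4.15% to 7.48%) were cycling at day 13, with 8.28%, 7.23%, 3.49% and 4.02% by set. At day 19 it was 14.5% (12.1% to 17.1%), with 18.5%, 11.9%, 13.5% and 19.7%. In each class the lowest day 19 set lay above the highest day 13 set. Thinned to 5000 UMIs, the shares were 6.52% and 13.2% for CD8 and 3.76% and 9.32% for CD4 cells, and the sets of the days still did not overlap. At a limit of 10000 UMIs the CD8 shares were 31.7% and 35.6% and the CD4 shares 10.5% and 22.8%, so the ratio of the days was smaller in CD8 cells. The share depended steeply on depth. Among CD8 cells of 5000 to 6000 UMIs it was 0.542% at day 13 and 0.893% at day 19, near the 0.584% and 0.571% of those just below the limit.

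**Figure D1:**
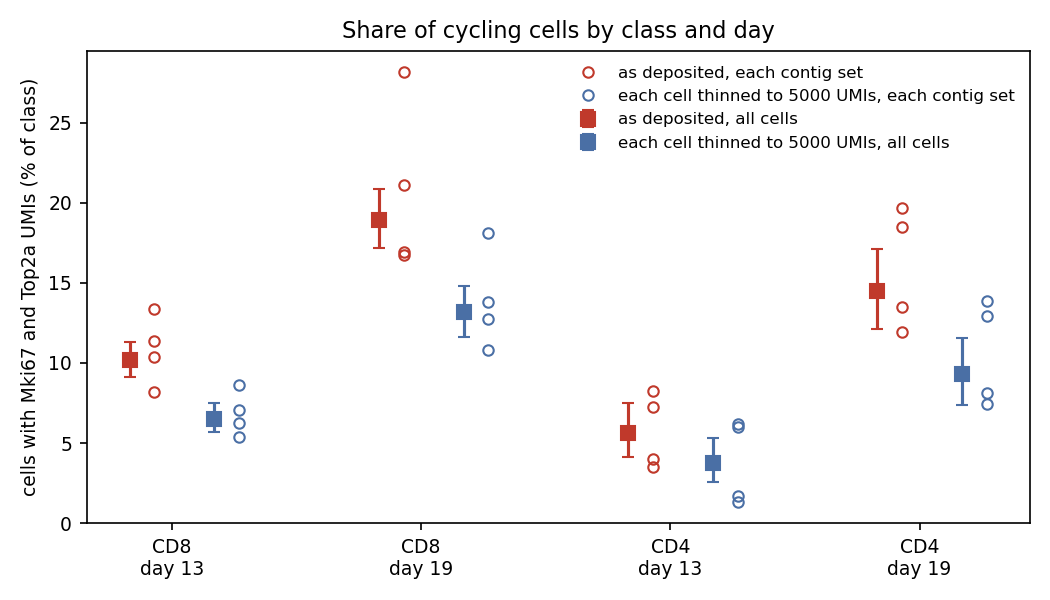
Share of CD8 and CD4 cells with both Mki67 and Top2a UMIs (vertical axis, %) at days 13 and 19, as deposited (red) and with each cell thinned to 5000 UMIs (blue); squares are all cells with exact 95% binomial intervals and open circles are the 4 sets. The day 19 sets of a class lie above its day 13 sets, from 16.8% against 13.4% upward in unthinned CD8 cells.

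A larger share of cycling than of non-cycling CD8 cells belonged to expanded clones, and by the widest margin at day 13. Clone size was read where a cell had a single productive chain of each kind, and a clone of 3 or more cells in the set was called expanded. At day 13, 107 of 235 cycling CD8 cells (45.5%, 39.0% to 52.1%) were in such clones, against 306 of 1604 non-cycling cells (19.1%), or 25.9% of matched cells. By set the range was 32.4% to 56.2% in cycling and 10.5% to 31.8% in non-cycling cells, so the ranges did not overlap. The day 19 count was 80 of 212 cycling (37.7%, 31.2% to 44.6%) against 191 of 767 non-cycling cells (24.9%). Matched cells were at 39.1%, above the cycling cells, and 36.8% of the matched against 18.5% of the cycling cells had more than 20 macrophage UMIs. What turned the direction was not tested. There the set ranges, 29.1% to 53.3% and 12.8% to 31.8%, overlapped, and the difference of 12.8 points became 20.5 points without set 2 and 6.98 points without set 3. A cycling cell adds to its own clone. With the other members counted among non-cycling cells only, the shares were 39.1% against 16.5% at day 13 and 30.7% against 21.1% at day 19.

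Read the other way, the share of CD8 cells that was cycling at day 13 was 7.27% in clones of 1 cell, 15.3% in clones of 2, 19.9% in clones of 3 to 9 and 21.4% in clones of 10 or more. At day 19 it was 15.4%, 19.2%, 25.6% and 21.3%. Thinned, the day 13 shares were 4.31%, 12.2%, 12.8% and 14.3%, and the day 19 shares 10.0%, 11.5%, 18.9% and 16.3%. Cells alone in their clone had the lowest share on each day. Of the 73 expanded CD8 clones at day 13, 41 had a cycling cell, and of the 38 at day 19, 22 had one. None consisted of cycling cells only. The 3 clones with most cycling cells held 34 of 235 cycling CD8 cells at day 13 and 34 of 212 at day 19. At day 13 expanded clones held 2 of 27 cycling CD4 cells (7.41%), against 15 of 398 non-cycling (3.77%) and 3.45% of matched cells. The day 19 count was 34 of 80 (42.5%, 31.5% to 54.1%), against 38.1% of non-cycling and 44.1% of matched cells. The direction changed without day 13 set 1 (-3.13 points) and without day 19 set 4 (-1.42 points).

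**Figure D2:**
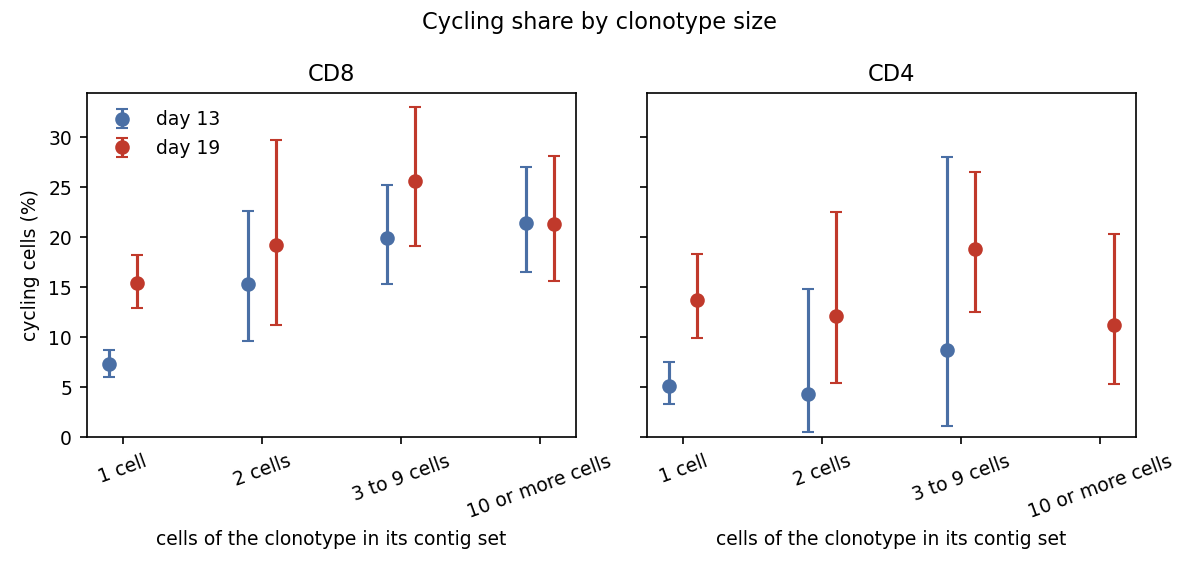
Share of cells that were cycling (vertical axis, %) by the number of cells of the clonotype in its set, for CD8 (left) and CD4 cells (right), day 13 in blue and day 19 in red, with exact 95% binomial intervals. Day 13 CD8 cells run from 7.27% in clones of 1 cell to 21.4% in clones of 10 or more, while the CD4 intervals overlap.

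Genes were compared by the summed UMIs of cycling and non-cycling cells of a class and day, as CPM, with the exact Poisson interval of the ratio. A gene with at least 200 UMIs over both sums on each day was called when it was at least 1.5-fold higher, or lower, on both days. In CD8 cells 858 of 7200 genes (11.9%) were called higher, 356 (4.94%) lower, and 7 (0.0972%) passed the fold on both days in opposite directions. In CD4 cells 235 of 4318 genes (5.44%) were called higher and 180 (4.17%) lower, and 4 (0.0926%) passed in opposite directions. The counts were 155 higher without day 13 set 2 and 118 lower without day 19 set 2. Against the matched cells 11% of 5243 CD8 genes were called higher and 5.11% lower, and of 1030 CD4 genes 6.7% and 8.25%. With the full reference, the medians over all genes tested were log2 0.09 and 0.06 in CD8 cells at days 13 and 19, and 0.02 and -0.01 in CD4 cells. Log2 values below are ratios of cycling to non-cycling cells in that order of days. The choice of cells by Mki67 and Top2a fixes the direction of genes of the cell cycle, and their counts are given as a description.

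Genes of DNA replication and mitosis led the CD8 list. All 23 tested S phase genes were called higher, with medians of log2 2.80 and 2.13, and all 23 tested genes of G2 and mitosis, with medians of 5.45 on each day. Rrm2, a subunit of the reductase that makes deoxynucleotides, was at 358 CPM in cycling and 3.13 in non-cycling CD8 cells at day 13 and at 263 and 3.69 at day 19 (log2 6.83 and 6.16). Cdt1, which licenses replication origins and is destroyed as S phase begins, had the smallest difference (1.15 and 0.70). Cenpf, a kinetochore protein, was at 203 against 0.715 CPM and 230 against 1.42 CPM (8.15 and 7.34). Cks2, a cyclin-dependent kinase subunit, had the smallest of the mitotic list (2.19 and 2.26). The chosen markers Top2a and Mki67 have no UMI in the reference by construction, so no fold is given for them.
The rest of the 10 highest CD8 genes follow. Nuf2 of the kinetochore (8.60, 6.73 to 11.7, and 8.99, 6.50 to 14.3), Esco2 of sister chromatid cohesion (9.42, 7.56 to 12.5, and 8.13, 6.58 to 10.4) and the MAX partner Mxd3 (8.42, 6.86 to 10.7, and 8.21, 6.35 to 11.3) had only 1 to 3 UMIs in non-cycling cells, hence the wide intervals. The others were Ccna2 (7.99 and 7.25), Hmmr, a spindle protein (7.93 and 6.90), the kinesin Kif18b (7.01, and 7.75 with 5.88 to 10.8 on 2 UMIs) and the replication-dependent histone Hist1h3c (7.63 and 6.92). More UMIs of the mitotic than of the S phase list were found in 180 of 301 cycling CD8 cells at day 13 and 215 of 341 at day 19. In non-cycling CD8 cells it was 1057 of 2257 and 419 of 1144, on a median of 4 UMIs of each list.

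The regulators of G1 split, with 3 of 15 tested called higher and 3 lower in CD8 cells. Higher were Cdkn2c, an inhibitor of CDK4 and CDK6 (2.7 and 2.69), Cdkn2d, of the same family (0.90 and 1.34), and Cdk4 itself (1.23 and 0.98). Lower were the antiproliferative genes Btg1 and Tob1 and the D-type cyclin Ccnd2. Btg1 was at 390 CPM in cycling and 1194 in non-cycling CD8 cells at day 13 and at 507 and 1000 at day 19 (-1.62 and -0.98). Ccnd2 was at -1.53 and -1.19 and Tob1 at -1.33 and -0.80. Against matched cells Btg1 (-1.08 and -0.56) and Tob1 (-0.75 and -0.42) were not called, the other 4 were, and Btg2 (-1.08 and -0.61) and Ccnd1 (-2.601 and -1.49) were called lower. More than 20 macrophage UMIs were found in 29.9% and 36.8% of the matched against 11.0% and 18.5% of the cycling cells. The part of this RNA in these calls was not tested. The median of the 15 genes was -0.18 and 0.08.

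Enzymes that supply nucleotides were higher. Of 17 tested genes of nucleotide and one-carbon synthesis, 13 were called higher in CD8 cells and none lower (medians 1.12 and 0.76), and 8 of 15 against the matched cells (11% over all genes there). The largest differences were those of Tk1, the thymidine kinase of S phase (5.07 and 4.06), Dctpp1, which hydrolyses dCTP (2.13 and 1.75), and Shmt1 of the folate cycle (2.09 and 1.30). The smallest was that of Atic of purine synthesis (0.24 and 0.13). Among glycolysis genes 6 of 13 were called higher (Tpi1, Pgk1, Gapdh, Ldha, Eno1 and Pkm, medians of the list 0.75 and 0.53), from Tpi1 at 1.32 and 1.23 to Hk2 at 0.16 and -0.17, and 0 of 11 against matched cells. Among genes of oxidative phosphorylation only Cox5a of 15 was called (0.96 and 0.61, list medians 0.60 and 0.40), and none against matched cells. Of 10 tested ribosome biogenesis genes none was called.

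Genes of circulating and memory T cells were lower in cycling CD8 cells. Of the 12 progenitor and memory genes 10 were called lower and none higher, with medians of -1.99 and -1.36, and 5 of 9 against matched cells (-1.30 and -0.59). Ccr7, the lymph node homing receptor, was at 62.6 against 438 and 130 against 339 CPM (-2.81 and -1.38). Il7r, the receptor for the survival cytokine IL-7, was at 58.8 against 259 and 76.0 against 174 CPM (-2.14 and -1.20, but -1.30 and -0.50 against matched cells, which is not a call), with cycling sets at 42.7 to 75.7 and 48.4 to 110, below the non-cycling sets of each day. Klf2, which switches on the egress receptor gene S1pr1, was at 256 against 1046 and 218 against 638 CPM (-2.03 and -1.55). Xcl1, a chemokine for cross-presenting dendritic cells, was not called (-0.06 and 0.27), and Slamf6 missed the fold at day 13 (-0.54 and -1.33).
Tcf7 was at 77.3 CPM in cycling and 254 in non-cycling CD8 cells at day 13, a log2 ratio of -1.72 (-1.86 to -1.58). Its day 19 levels were 87.9 and 151 CPM, a ratio of -0.78 (-0.92 to -0.64). The day 13 sets ranged from 64.3 to 90.2 CPM in cycling and 234 to 271 in non-cycling cells and did not overlap. The day 19 sets ranged from 74.2 to 105 and 99.5 to 178 and did, with Tcf7 lower in 7 of 8 sets over the days. Against matched cells Tcf7 stood at -0.89 and -0.13 and was not called. Free RNA in barcodes of 10 to 100 UMIs held Tcf7 at 163 and 84.2 CPM.
The 10 lowest CD8 genes included, from this list, Ccr7, Satb1 (a chromatin organiser of T cell development, -2.53 and -1.35) and Bach2 (a repressor that holds back effector genes, -2.08 and -1.72). The lowest by the mean of the 2 days was Igfbp4, an IGF-binding protein, at 1.5 against 33.0 CPM and 13.5 against 47.3 CPM (-4.46 and -1.81). Also among them were Tcp11l2 (-2.61 and -3.08), Tdrp (-3.35 and -1.99), Tmem108 (-3.56 and -1.28), the histone demethylase Kdm5b (-2.49 and -1.74) and Slfn5 of the Schlafen family (-2.32 and -1.59). Each gene named here was lower in 8 of 8 sets.

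Interferon response and immediate early genes were also lower. Of 9 interferon genes tested 8 were called lower in CD8 cells (medians -0.92 and -0.71) and 6 of 9 against matched cells. Ifit1, which binds viral RNA, had the largest difference (-1.42 and -1.49). Isg15 was at 797 against 1265 CPM and 294 against 497 CPM (-0.67 and -0.75). Of 9 immediate early genes, which follow a TCR signal within minutes, 4 were called lower (medians -1.06 and -0.44), and 5 against matched cells. Jun (-1.5 and -0.89), Junb (-1.31 and -0.92), Nr4a3 (-1.32 and -0.71) and Ier2 (-1.01 and -0.79) were the 4, and Nr4a1 had the smallest difference (-0.38 and -0.34). Among cytokine receptors Il7r and Il15ra were called lower of 8, and none of 7 against matched cells, where Il15ra had too few UMIs. Among 8 chemokine receptors Ccr7 was called lower, and against matched cells Ccr7 and Ccr2 of 7. None of 8 NK receptor genes was called, from Klra6 (-2.40 and -0.45) to Klrc1 (0.58 and 0.32).

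**Figure D3:**
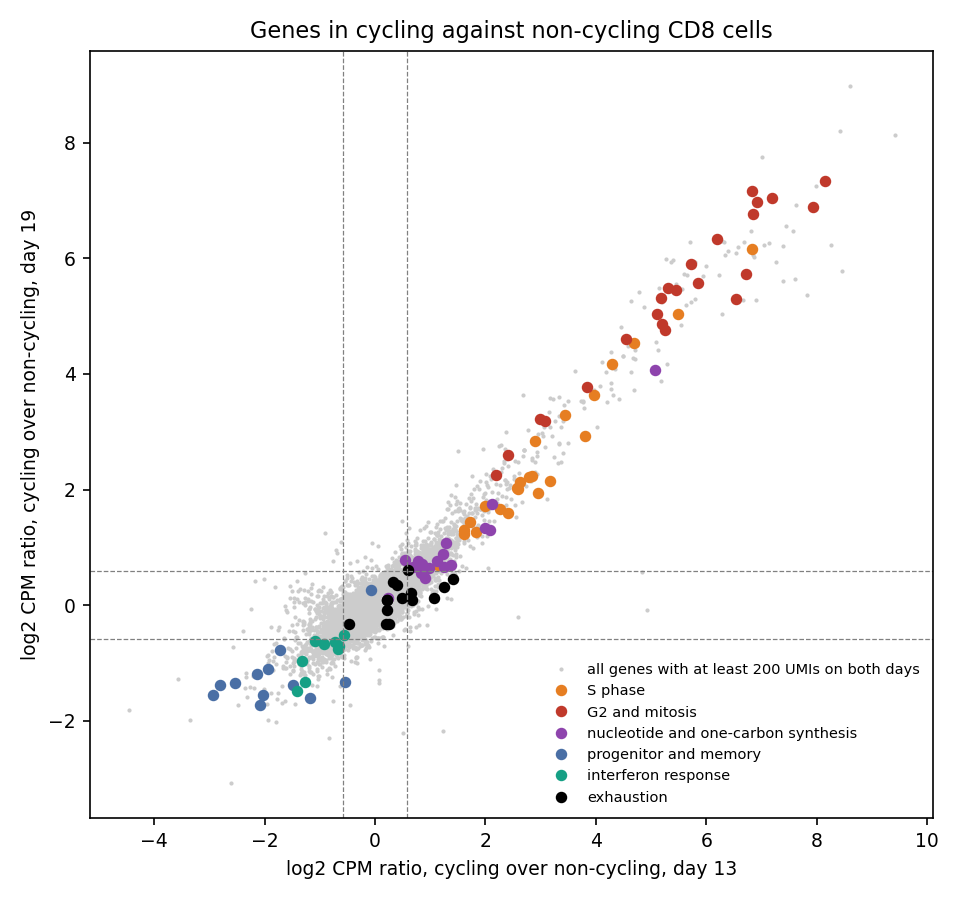
Log2 CPM ratio of cycling over non-cycling CD8 cells at day 13 (horizontal axis) and day 19 (vertical axis), 1 point a gene, with members of 6 lists in colour, broken lines at 1.5-fold, and Mki67 and Top2a left out. S phase and mitosis genes run up to Cenpf at 8.15 and 7.34, progenitor and memory and interferon genes lie mostly below 0 on both axes, and exhaustion genes spread around 0 to 1.

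Exhaustion and effector genes are set beside all CD8 genes tested, of which 11.9% were called higher and 4.94% lower. Of 15 exhaustion genes only Prdm1, encoding the factor Blimp-1, was called (0.60 and 0.61), and none of 13 against matched cells. The list's medians were 0.40 and 0.13, and 11 of the 15 were above 0 on both days and 1 below, against 3463 above and 2507 below of the 7200 genes tested. Of the 16 effector genes 6 were above 0 on both days and 5 below. Rgs16, a regulator of G protein signals, had the largest day 13 value (1.41 and 0.46) and Nr4a2 the lowest (-0.48 and -0.32). Pdcd1 was at 269 CPM in cycling and 170 in non-cycling CD8 cells at day 13 (0.67, 0.58 to 0.75), where the sets at 243 to 305 and 145 to 197 did not overlap. Its day 19 values were 263 and 247 CPM (0.09), with sets at 182 to 291 and 159 to 332 that did. Havcr2 was at 54.0 against 25.8 CPM at day 13 (1.06) and 57.2 against 52.4 at day 19 (0.13), and its day 19 sets, 31.4 to 80.6 against 25 to 64.6, overlapped. Among 16 effector genes only Ccl5, the chemokine RANTES, was called, and it was lower, at 2878 against 6777 CPM and 1404 against 3528 CPM (-1.24 and -1.33). Against matched cells 2 of 16 were called higher, Gzma (0.74 and 2.72) and Gzmk (1.13 and 0.76), and 2 lower, Ccl5 and the chemokine Ccl3 (-0.86 and -0.75).
Granzymes are killing proteases. Gzmb was at 2026 against 1152 CPM at day 13 (0.81) and 1502 against 1306 at day 19 (0.20). Gzma was at 1145 against 423 and 674 against 451 CPM (1.44 and 0.58). Gzmk, of the early effector state, was at 398 against 192 CPM (1.05, 0.97 to 1.13) and 142 against 99.0 CPM (0.52, 0.40 to 0.65), higher in 8 of 8 sets. Its day 13 sets, 288 to 482 against 153 to 247, did not overlap, and its day 19 sets, 101 to 194 against 65.3 to 113, did. Gzmf was at 183 against 6.05 CPM at day 13 (4.92), where 636 of its 1099 UMIs in cycling cells came from 1 cell, and at 753 against 803 CPM at day 19 (-0.09). At day 13 Gzmf was lower in cycling cells in sets 1 and 2 (9.33 against 22.9 and 2.07 against 8.71 CPM) and higher in sets 3 and 4 (374 against 0.803 and 319 against 0 CPM).

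Per cell, cycling CD8 cells at day 13 were short of Tcf7 and rich in Pdcd1 and Gzmk, and the gaps were smaller at day 19. Tcf7 was detected in 24.3% of thinned cycling cells at day 13 (sets 20% to 27.0%), in 59.2% of non-cycling cells (54.6% to 62.7%) and in 39.6% of matched cells. At day 19 it was 24.6%, 42.0% and 26.3%, so the cycling cells lay within the interval of the matched cells (20.2% to 33.2%). Without thinning the values were 34.2% against 68.1% and 38.4% against 51.8%. Pdcd1 was detected in 57.8% of cycling, 27.8% of non-cycling and 36.9% of matched cells at day 13, and in 51.6%, 36.7% and 47.4% at day 19 (unthinned 81.4% against 33.1% and 72.7% against 42.8%). Gzmk was detected in 63.5%, 28.6% and 35.8% at day 13, and in 31.1%, 21.3% and 24.2% at day 19 (unthinned 75.4% against 32.3% and 42.5% against 26.8%). The day 19 Gzmk share ran from 17.9% in set 4 to 52.5% in set 3. For scale, barcodes without Cd3 RNA and with at least 20 macrophage UMIs, outside the contig tables, had thinned shares of 2.2% and 1.45% for Tcf7, 1.69% and 1.93% for Pdcd1 and 0.507% and 0.483% for Gzmk, at median depths of 8959 and 9414 UMIs.
Havcr2 was detected in 17.9% of cycling, 6.42% of non-cycling and 17.1% of matched CD8 cells at day 13, and in 19.6%, 15.3% and 23.7% at day 19 (unthinned 41.9% against 10.4% and 44.6% against 23.6%). Macrophages make Havcr2 themselves, and 46.3% and 38.2% of those Cd3-free barcodes had it, so its share in T cell droplets has no clean background here. Slamf6, a receptor of the progenitor state, was in 18.3%, 22.6% and 11.2% at day 13 and in 5.28%, 13.5% and 10.5% at day 19, against 8.95% and 8.21% of the Cd3-free barcodes (unthinned 38.2% against 30.0% and 17.6% against 19.9%). Gzmf was in 2.99%, 0.177% and 0.535% at day 13, and in 15.2%, 8.92% and 16.8% at day 19. Foxp3 was in 1.33% and 2.64% of cycling and 2.17% and 1.66% of non-cycling CD8 cells, which gives its background in cells that should lack it.

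States were also read by combining genes. Progenitor-like cells (Pdcd1 with Tcf7 or Slamf6 and no Havcr2) made up 15.3% of cycling, 12.5% of non-cycling and 8.56% of matched CD8 cells at day 13, and 8.50%, 6.99% and 6.84% at day 19. Terminal-like cells (Havcr2 with neither Tcf7 nor Slamf6) made up 14.3%, 4.56% and 11.8%, and 18.2%, 14.0% and 20.5%. The Cd3-free macrophage barcodes met the terminal-like definition in 41.6% and 35.3% and the progenitor-like definition in 0.169% and 0%, so the terminal-like share has no clean background either. Pdcd1 and Gzmk together were in 37.5% of cycling against 15.7% of non-cycling cells at day 13 and in 20.8% against 14.9% at day 19. Turned around, 4.59% (3.61% to 5.73%) of Tcf7-positive CD8 cells were cycling at day 13, against 17.4% of Pdcd1-positive, 18.7% of Gzmk-positive and 23.2% (17.4% to 30.0%) of terminal-like cells, and 11.4% (8.46% to 14.9%) of progenitor-like cells. At day 19 the shares were 12.9% (10.4% to 15.8%), 23.0%, 24.1%, 22.1% (17.4% to 27.4%) and 23.2% (16.1% to 31.6%). Cells without Pdcd1 were cycling in 6.48% and 15.9%. The groups differed in depth, with day 13 medians of 6880.5 (Tcf7), 8475 (Pdcd1), 8289 (Gzmk), 11772 (terminal-like) and 7334 UMIs (progenitor-like). At day 19 they were 8087, 11405.5, 10586, 11520 and 8984. With the markers of division also thinned, the Tcf7-, Pdcd1- and Gzmk-positive cells had 2.89%, 10.8% and 11.9% cycling at day 13. Their day 19 shares were 9.23%, 17.1% and 16.9%. So thinned, the progenitor-like and terminal-like cells had 7.67% and 14.1% cycling at day 13 and 17.6% and 15.7% at day 19.

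**Figure D4:**
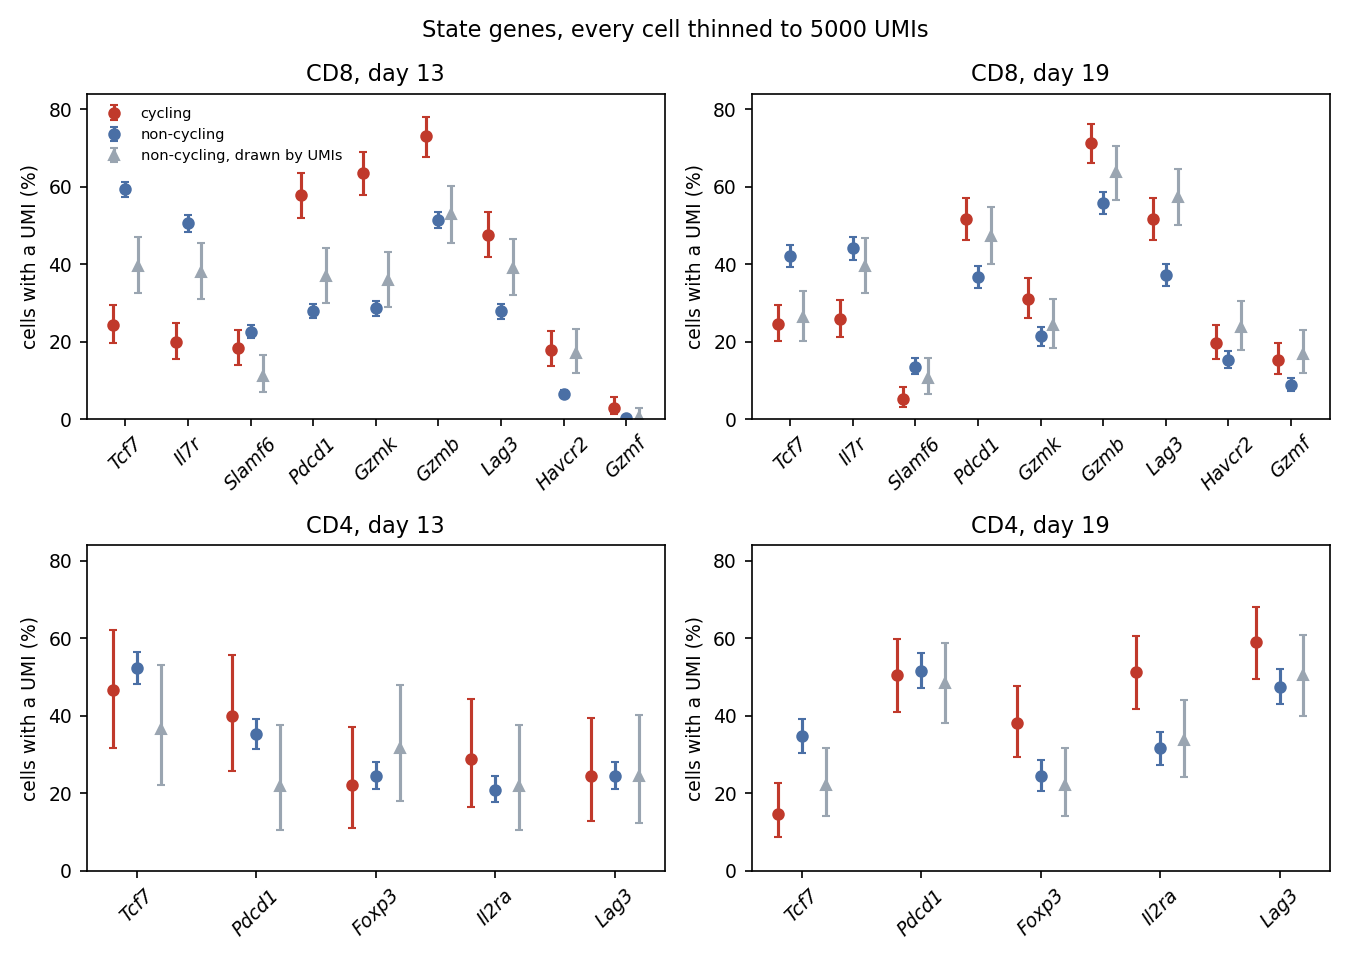
Share of cells with a UMI of each gene after thinning to 5000 UMIs (vertical axis, %), with exact 95% binomial intervals, in CD8 (top) and CD4 (bottom) cells at day 13 (left) and day 19 (right): cycling in red, non-cycling in blue, and grey triangles for non-cycling cells drawn to the UMI deciles of the cycling cells. Tcf7 and Il7r are lower and Pdcd1 and Gzmk higher in cycling CD8 cells at day 13, while at day 19 Tcf7 and Pdcd1 lie near the triangles.

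Fewer genes could be tested in CD4 cells. All 8 tested S phase genes and all 5 tested genes of G2 and mitosis were called higher (medians 2.01 and 2.19, and 2.66 and 2.45). The smallest and largest differences were those of Mcm6 of the replicative helicase (1.13 and 1.46) and Tyms, thymidylate synthase (3.86 and 3.56), in the S phase list, and of Cks2 (2.06 and 1.87) and Ube2c of the anaphase-promoting complex (5.73 and 4.36) in the mitotic list. Apart from the 2 chosen markers and Ube2c, the highest were Birc5 (7.59 and 4.96), the PCNA partner Pclaf (7.35 and 5.05), the histones Hist1h1b, Hist1h2ae, Hist1h2ap and Hist1h3e, and the microtubule destabiliser Stmn1 (5.12 and 3.8). Mitotic list UMIs exceeded S phase UMIs in 36 of 45 and 68 of 115 cycling CD4 cells, and in 340 of 596 and 263 of 478 non-cycling CD4 cells. Of 7 nucleotide and one-carbon genes 5 were called higher (Phgdh of serine synthesis at 1.96 and 1.43), of 14 G1 genes 2 higher (Cdk4 and Cdkn2d) and 3 lower (Btg1, Btg2 and Ccnd1), and of 7 ribosome biogenesis genes 2 higher (Nop58 at 1.07 and 0.67 and Nop56 at 1.02 and 0.87, both under the UMI limit against matched cells). None of 9 progenitor and memory genes or 11 exhaustion genes was called. Interferon genes were lower in 6 of 9 (medians -0.77 and -0.68), with Irf7 at -0.98 and -0.99, and in 3 of 9 against matched cells (8.25% over all genes there). Immediate early genes were lower in 4 of 10 (4.17% over all CD4 genes), and in 2 of 8 against matched cells (8.25%). Ccl5 was again lower (-0.77 and -1.31), as were Klrk1 (-0.87 and -1.25) and Cxcr4 (-0.94 and -0.59).
The 10 lowest CD4 genes include genes that macrophages and monocytes are known to make. They were Ly6i (-2.09 and -2.48), Ms4a4a (-2.59 and -1.38), Cfb (-2.23 and -1.63), Cxcl9 (-2.80 and -0.95), Tgfbi (-2.07 and -1.34), Il1b (-1.62 and -1.60), Thbs1, Cd40, Ramp3 and Tcp11l2. Ly6i turned to 0.80 at day 13 without cells with a macrophage marker UMI, and Ms4a4a to 0.88 without cells of more than 20 macrophage UMIs. Cxcl9 at day 19 was higher in cycling cells in set 3 (369 against 177 CPM), and stood at -2.29 without that set and at -0.19 without set 2. On leaving out 1 set, day 13 values ran from -3.51 to -1.58 for Tgfbi and -2.85 to -1.25 for Il1b. The day 19 value of Cfb ran from -2.08 to -0.93. Without cells of more than 20 macrophage UMIs, 58 of the 79 CD4 genes called lower that could still be tested remained, against 129 of 142 called higher. In CD8 cells 297 of 306 and 778 of 783 remained. Against matched cells 78 of 203 CD8 genes called lower and 532 of 725 called higher that could be tested remained.

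Foxp3 encodes the master factor of regulatory T cells. It was at 140 CPM in cycling and 135 in non-cycling CD4 cells at day 13 (0.05, -0.26 to 0.35, and -0.62 to 0.24 on leaving out 1 set) and at 188 and 122 CPM at day 19 (0.63, 0.45 to 0.80). The sets overlapped on each day, at 28.4 to 249 against 117 to 151 CPM and at 162 to 210 against 66.7 to 191. Thinned, 22.2% of cycling (sets 0% to 33.3%), 24.5% of non-cycling and 31.7% of matched cells had it at day 13, and 38.3% (29.3% to 47.8%, sets 25% to 42.9%), 24.5% (sets 15.9% to 42.9%) and 22.1% at day 19. Unthinned it was 33.3% against 27.9% and 52.2% against 28.5%. Of Foxp3-positive CD4 cells 5.13% were cycling at day 13 and 19.3% (14.4% to 25%) at day 19, and of Foxp3-negative cells 5.81% and 12.5% (9.93% to 15.6%). Thinned also for the markers of division, the day 19 values were 10.5% and 8.83%.
Of 11 regulatory T cell genes tested only Il2ra, the alpha chain of the IL-2 receptor, was called (0.66 and 1.00), detected in 28.9% against 21.0% of thinned cells at day 13 and 51.3% against 31.6% at day 19. Ikzf2, encoding Helios, was at -0.06 and 0.67, and Areg, a repair factor, at -2.80 and -0.43. Tcf7 was in 46.7% of cycling, 52.3% of non-cycling and 36.6% (22.1% to 53.1%) of matched CD4 cells at day 13, so its direction turned with the reference. At day 19 Tcf7 was in 14.8% (8.85% to 22.6%), 34.7% and 22.1%. Its CPM ratios were -0.52 and -1.25. Pdcd1 was in 40.0% of cycling, 35.2% of non-cycling and 22.0% of matched CD4 cells at day 13, and in 50.4%, 51.7% and 48.4% at day 19. Of 4 helper T cell genes tested none was called.

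The genes of cycling CD8 cells with the largest ratios between the days included the natural killer receptor genes Klra3, Klrb1c and Klra7, the granzymes Gzmf and Gzmc, and interferon genes. Of 6441 genes with at least 200 UMIs over both days, 181 (2.81%) were at least 1.5-fold higher at day 19 and 273 (4.24%) lower, of which the latter count was 172 without day 13 set 2. In non-cycling CD8 cells it was 2.76% and 5.95%. The log2 values here are day 19 over day 13, with non-cycling cells after them. Klra3, an inhibitory Ly49 receptor, was at 2.00 CPM at day 13 and 31.9 at day 19 in cycling cells (4.00, 3.16 to 4.97). On leaving out 1 set it ran from 3.43 to 5.09. It was found in 5 of 301 and 48 of 341 cycling cells. Non-cycling cells held it at 9.78 and 20.3 CPM (1.06), and free RNA at 3.23 and 18.3 CPM. Klrb1c, encoding NK1.1, was at 2.83 and 29.2 CPM (3.37 against 1.20), and Klra7, another Ly49 receptor, at 18.0 and 58.5 (1.70 against 0.20). Free RNA held Klrb1c at 10.4 and 24.0 CPM and Klra7 at 22.0 and 28.2 CPM, and its part was not tested. Of the NK receptor list 3 of 6 tested genes were higher at day 19 in cycling and 3 in non-cycling CD8 cells (medians 0.64 and 0.42). Reads of near-identical Ly49 genes may be split between copies. The 3-gene NK cell list (Ncr1, Klrb1c and Eomes, which activated CD8 cells also make in part) summed to 34.1 and 57.7 CPM in cycling and 70.1 and 70.3 CPM in non-cycling CD8 cells, all 3 genes being detected, and its part was not tested. Csf1, the macrophage growth factor, was at 2.54 against 1.98 (3.46 without day 13 set 1), and Emid1 at 1.69 against 1.95.
The granzymes Gzmf and Gzmc stood at 2.04 against 7.05 and at 1.95 against 6.22 between the days. Gzmc stood at 1.20 without day 19 set 4 and 2.67 without day 13 set 4. At day 13 Gzmc was higher in cycling than in non-cycling cells in 4 of 4 sets (sets 23.8 to 294 against 2.43 to 4.98 CPM). Without the highest cell of each day the cycling value for Gzmf was 3.12. Ttr, transthyretin, ranked highest by ratio but was found in 2 of 341 cells at day 19, with 504 of its 839 UMIs in 1 cell.
Lower at day 19 was the gut-homing receptor Ccr9, at 33.0 and 2.52 CPM (-3.71 against -0.82, and -5.06 to -3.28 on leaving out 1 set). Lower too were the metallothionein Mt3 (-2.02 against -0.94), Crip2 (-2.01 against -0.52), the carbonic anhydrase Car2 (-1.68 against -0.84) and Rasgrp2, a Rap1 exchange factor (-1.58 against -0.72). So were the interferon genes Ifit1 (-1.65 against -1.58), Cmpk2 (-1.55 against -1.62) and Ifit3 (-1.53 against -1.46). Without day 13 set 2 they stood at -0.80, -0.72 and -0.65, and the sets of the days overlapped for each, as for Ifit1 at 31.8 to 226 CPM and 7.43 to 64.5 CPM. Of the 9 interferon genes 8 were lower in cycling CD8 cells (median -1.11) and all 9 in non-cycling cells (-1.08). The difference between them was not tested. Tcf7 stood at 0.19 in cycling and -0.75 in non-cycling CD8 cells, Pdcd1 at -0.03 and 0.54, Havcr2 at 0.08 and 1.02, Gzmk at -1.48 and -0.96, Slamf6 at -1.52 and -0.74. For Tcf7, Pdcd1 and Havcr2 the ratio was nearer to 0 in cycling than in non-cycling cells. The difference between the ratios was not tested.

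**Figure D5:**
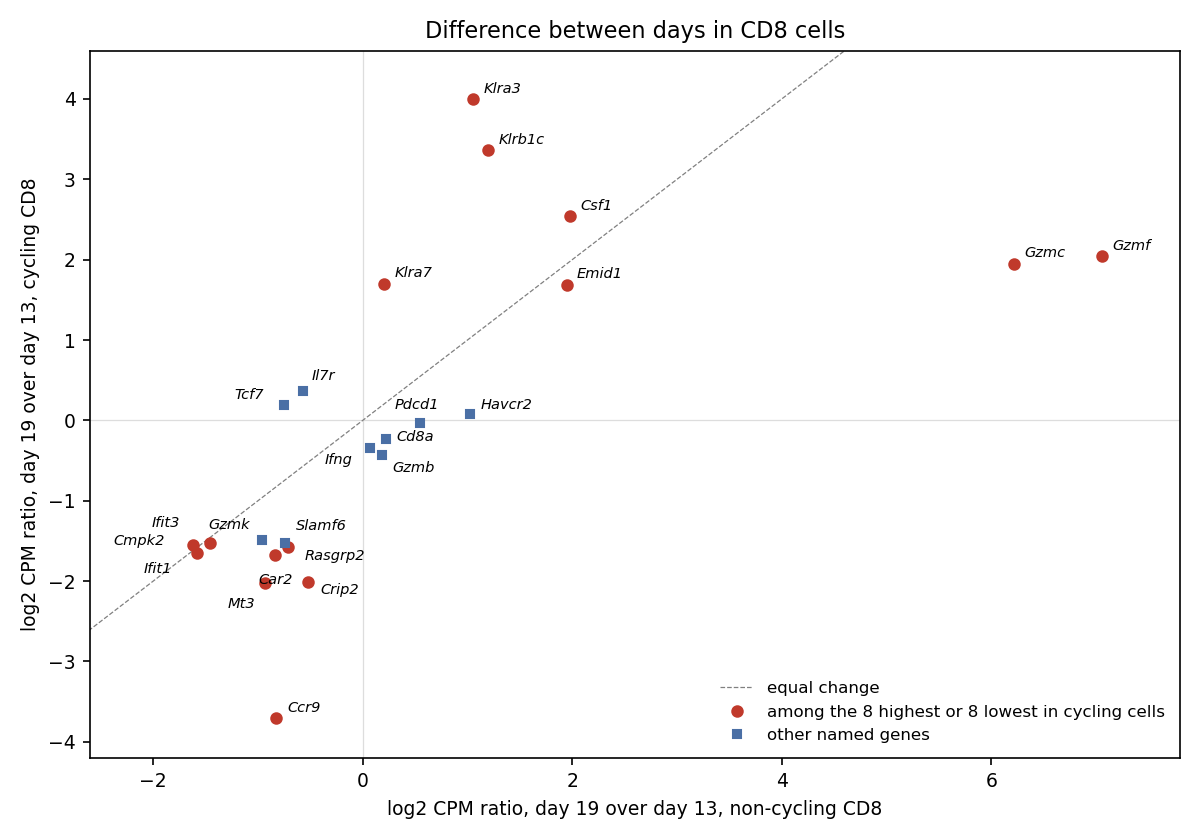
Log2 CPM ratio of day 19 over day 13 in non-cycling (horizontal axis) and cycling (vertical axis) CD8 cells; red circles are the 8 genes highest and 8 lowest in cycling cells, with Ttr left out, blue squares other named genes, and the broken line marks equal ratios. Klra3 (4.00 against 1.06) and Ccr9 (-3.71 against -0.82) lie farthest from the line above and below it among genes of low non-cycling change, and Gzmf (2.04 against 7.05) far to the right.

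In cycling CD4 cells 143 of 2543 genes (5.62%) were higher at day 19 and 165 (6.49%) lower, against 3.51% and 4.98% in non-cycling CD4 cells. Ccr8, a chemokine receptor of tumor regulatory T cells, was at 51.8 and 182 CPM in cycling CD4 cells (1.81) and 72.2 and 205 in non-cycling cells (1.5). Mt1, a metallothionein, was at 1.5 against 0.65 (2.53 without day 13 set 1), and the cytokine subunit Ebi3 at 1.25 against 0.88. The phosphatase Dusp4 was at 1.21 against 1.03, Bmyc at 1.28 against 0.77 (2.02 without day 13 set 1), Syngr1 at 1.35 against 0.39 and the chemokine Cxcl9 at 2.22 against 0.37, with 114 of 221 Cxcl9 UMIs in 1 cell and a value of 0.89 without day 19 set 3. Without cells of more than 20 macrophage UMIs Syngr1 stood at -0.091. Of 10 regulatory T cell genes tested 7 were higher at day 19 in cycling CD4 cells (median 0.88) and 4 in non-cycling cells (0.51). Lower were Ifi208 (-1.96 against -1.23), Cmpk2 (-1.82 against -1.45), Rsad2 (-1.76 against -1.44, and -0.82 without day 13 set 2) and Ms4a4b (-1.75 against -0.70), with all 9 interferon genes lower (median -0.94, and -0.92 in non-cycling cells).
With 45 cycling CD4 cells at day 13, other ranks rested on single cells. All 244 UMIs of Gzmf at day 19, all 292 of Jchain at day 13 and 139 of 140 of Cxcl13 at day 13 came from 1 cell each, as did 91 of 149 of Fscn1 and 83 of 109 of Txndc5. Without the highest cell of each day Txndc5 stood at 0.19 in place of -1.73.

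Surface antibody tags were read as counts of a tag in every 10000 tag counts. CD44, the receptor of activated T cells, was at 21.1 in cycling against 18.5 in non-cycling CD8 cells at day 13 and 35.5 against 23.5 at day 19 (log2 0.19 and 0.59), but at -0.42 and 0.13 against matched cells. The myeloid tag CD11b moved alike, at 0.18 and 0.55, as did the pan-leukocyte tag CD45, at 0.28 and 0.47. Against matched cells CD11b was at -1.03 and -0.44 and CD45 at -0.15 and 0.31. The part of these tags was not tested. CD279, which is PD-1, did not follow Pdcd1 RNA at day 13, at 123 against 120 (0.04, with the RNA at 0.67). At day 19 neither differed much, with the tag at 119 against 120 (-0.02) and the RNA at 0.09. In CD4 cells CD357, the receptor GITR of regulatory T cells, was at 0.78 and 0.68, and at 0.04 and 0.49 against matched cells. CD25, the product of Il2ra, was at -0.02 and 0.45, and at -0.34 and 0.41 against matched cells. Most tags had like counts in all classes, and the CD8a tag made up 20.4 of 10000 counts in non-cycling CD8 and 19.0 in non-cycling CD4 cells at day 13.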

How the data were processed

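CD3+ T cells sorted from CT2A tumors were captured once a day, at days 13 and 19, for gene expression, antibody tag and TCR libraries. The submitters' processing notes name bcl2fastq 2.20, Cell Ranger 4.0.0, STAR 2.7.5c, Seurat, R 4.1.2 and the mouse build mm10, with no roles given. The values used are the deposited UMI counts per gene or tag and barcode, not normalized, as the authors' matrices hold them, and the authors' TCR contig tables. The gene expression matrices list 736611 and 735849 barcodes and 32285 genes, so filtering was done here. Samples were grouped by the day in their labels.

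Per class and day, counts were summed over cells and divided by the sum over all genes (CPM). The sums held 6005506 and 6747185 UMIs in cycling and 18193398 and 10565458 in non-cycling CD8 cells, and 733916 and 2328001, and 5637600 and 5115007, in CD4 cells. Ratios have exact Poisson intervals and shares exact Clopper-Pearson intervals, which cover counting error only. Thinning drew UMIs without replacement (seed 7). With 1 capture a day no p-value was computed. Python 3.11.15, numpy 2.4.6, scipy 1.17.1 and pandas 2.3.3 were used. The calls were also run on simulated Poisson counts. These lack variation between cells or sets, so the run says nothing on errors from that variation.

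Named genes were the 16 genes fixed by name, the 10 highest and 10 lowest called per class, the 8 highest and 8 lowest by day, the members with the largest and smallest fold of each of 18 lists, and the 3 clonotypes with most cycling cells. The ranks skipped receptor and antibody segments, genes of ribosomal proteins and of the mitochondrial genome, unnamed Gm and Rik models, and genes that follow the sex of the mouse. Other list members are named because they were called. The members, lists and rules were chosen with earlier results of these data known. Some list genes and 1 antibody tag are not reported here. Alternatives changed the marker and UMI limits, the cells kept, the scaling, the fold and the clone definition. Left out after the data were seen were the largest cycling clonotype and cells of more than 20 macrophage UMIs.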

Additional observations from a re-analysis of the deposited data

Results flagged for a closer look

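In cycling CD8 cells at day 19, Pdcd1 was detected after thinning in 35.7% of the cells of set 1, against 54.8%, 54.1% and 55.1% in the other sets, a gap beyond Dixon's 95% critical value for 4 values. In cycling CD4 cells at day 13, clonotypes of 3 or more cells held 18.2% of the cells of set 1 and 0% in the other sets, with 11, 9, 4 and 3 cells in the sets. Of 32 groups of 4 sets examined this way these 2 stood out, and chance flags about 1 in 20. That rate does not cover the CD4 flag, since with the other sets at 0% any value in set 1 above 0% is flagged.

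Klra3 was lower in cycling than in non-cycling CD8 cells in all 4 sets at day 13 (2.00 against 9.78 CPM) and higher in all 4 at day 19 (log2 0.65). Rasgrp2 was higher in cycling CD8 cells in all 4 sets at day 13 (log2 0.71) and lower in all 4 at day 19 (log2 -0.15). The difference between the days was not tested for either gene.

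Cycling T cells were also present outside the contig tables. Among barcodes past the UMI and mitochondrial limits with at least 2 Cd3 UMIs and at most 20 macrophage UMIs, 157 of 1477 (10.6%, 9.10% to 12.3%) had both markers at day 13 and 63 of 297 (21.2%, 16.7% to 26.3%) at day 19. In barcodes without Cd3 RNA and with at least 20 macrophage UMIs the shares were 1.01% and 2.42%.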

How the results depend on the processing

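No paired analysis was possible because each day has 1 library of a kind and the labels do not make the sets replicates. Cycling and non-cycling cells were set side by side within sets. The share of cycling cells was higher at day 19 than at day 13 in both classes under each alternative run. In the order CD8 at days 13 and 19 and CD4 at days 13 and 19, it was 7.5%, 15.1%, 2.89% and 9.45% with at least 2 UMIs of each marker, and 8.75%, 16.4%, 3.39% and 11.7% with Ccna2 and Birc5 as markers. It was 31.7%, 35.6%, 10.5% and 22.8% at a limit of 10000 UMIs, 7.26%, 15.8%, 2.36% and 10.3% at a limit of 1000, and 6.52%, 13.2%, 3.76% and 9.32% thinned. Without cells with a UMI of a macrophage gene other than Apoe and Lyz2, day 19 gave 16.9% in CD8 and 10.1% in CD4 cells.

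CD8 genes called higher numbered 428 at 2-fold, and those called lower 77 at 2-fold, 214 at a limit of 10000 UMIs and 621 with at least 50 UMIs. CD4 genes called higher numbered 56 without macrophage marker cells, 69 against matched cells, 100 at 2-fold and 616 with at least 50 UMIs. Those called lower numbered 331 with 2 UMIs of each marker, 348 with Ccna2 and Birc5, 302 at 10000 UMIs, 41 without macrophage marker cells, 85 matched, 26 at 2-fold and 360 with at least 50 UMIs. By day, genes higher in cycling cells at day 19 numbered 95 (CD8) and 38 (CD4) without macrophage marker cells and 117 and 76 without cells of more than 20 macrophage UMIs. Those lower numbered 150 and 31 without macrophage marker cells, and 89 in CD4 cells by the latter limit.

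The gap in Tcf7 share between cycling and non-cycling CD8 cells, -35.0 and -17.4 points, was -21.9 and -0.616 at 10000 UMIs and -15.3 and -1.68 matched. That of Pdcd1, 30.0 and 14.9 points, was 22.6 and 2.38, 20.9 and 4.24, and 48.3 and 29.9 unthinned. That of Gzmk was 27.6 at day 13 matched, and 43.1 and 15.7 unthinned, and that of Foxp3 in CD4 cells at day 19 was 23.7 unthinned. States need 5000 UMIs and gave no value at the limit of 1000. The clone gap of CD8 cells, 26.5 and 12.8 points, was 19.6 at day 13 matched, 1.66 at day 19 at 10000 UMIs and turned to -1.39 matched. That of CD4 cells at day 19, 4.39 points, was -1.62 matched.

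Single genes and states also changed sign. At day 19 in CD8 cells, at 10000 UMIs and matched, the gaps were -6.26 and -4.04 points for Havcr2, -6.07 and -1.59 for Gzmf and -5.05 and -2.34 for terminal-like cells. Without macrophage marker cells, log2 cycling over non-cycling was 0.21 for Foxp3 in CD8 and 0.80 for Ly6i in CD4 cells at day 13, and 0.65 for Gzmk and -3.00 for Gzmf in CD4 cells at day 19. Without cells of more than 20 macrophage UMIs it was 0.88 for Ms4a4a at day 13 and -3.42 for Gzmf at day 19 in CD4 cells. Day ratios in cycling CD4 cells turned to 0.39 for Txndc5 and 0.38 for Slamf6 without macrophage marker cells, and to -0.091 for Syngr1 by the latter limit. The cause was not tested.

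Leaving out 1 set at a time, the shares ran from 9.76% to 11.2% and 17.8% to 21.0% (CD8) and 4.93% to 6.51% and 13.0% to 17.1% (CD4). CD8 calls ran from 690 to 827 higher and 290 to 358 lower, and CD4 calls from 155 to 235 and 118 to 190. By day they ran from 147 to 195 and 172 to 305 in CD8, and 105 to 212 and 112 to 165 in CD4 cells. The gaps ran from -39.3 to -32.9 and -18.7 to -14.9 points for Tcf7, 29.1 to 32.9 and 11.0 to 19.3 for Pdcd1, 32.8 to 38.3 and 5.78 to 13.5 for Gzmk, and -9.64 to 1.85 and 11.6 to 16.8 for Foxp3 in CD4 cells. Clone gaps ran from 24.4 to 27.7 and 6.98 to 20.5 (CD8) and -3.13 to 6.42 and -1.42 to 12.5 (CD4). Gzmf in CD4 cells at day 19 ran from -3.42 (without day 19 set 4) to 5.49, and the day ratios from -2.38 to 4.79 (without day 13 set 1) for Cxcl13 and -2.19 to 0.41 (without day 13 set 3) for Txndc5.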
